A study of Homo sapiens with 14 samples.

Results

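The 8 genes described here code for the forkhead transcription factors FOXO1, FOXO3 and FOXO4, the insulin receptor INSR, the IGF1 receptor IGF1R, the receptor substrates IRS1 and IRS2 and the receptor adaptor GRB10. They were followed on every probe set that the platform annotation assigns to 1 of these symbols and to no other gene, which gave 27 of 42892 probe sets with a gene symbol, and 8 of 19775 genes. FOXO1 had 3 such probe sets, FOXO3 4, FOXO4 1, INSR 5, IGF1R 5, IRS1 3, IRS2 2 and GRB10 4. A further 3 probe sets that name FOXO3 together with its near-identical copy FOXO3B were left out.

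Insulin and IGF1 bind receptor tyrosine kinases that phosphorylate the IRS proteins, and these docking proteins recruit PI3K. PI3K makes the membrane lipid that activates AKT, and AKT phosphorylates FOXO proteins, which are then held in the cytoplasm by 14-3-3 proteins and cannot act on their genes. When PI3K or AKT is inhibited, FOXO proteins enter the nucleus, and in several tissues and tumour lines the insulin receptor and IRS2 genes are known FOXO targets, a loop that restores receptor signalling. In T cells, FOXO1 and FOXO3 are best known for keeping resting cells quiescent and for the genes of lymphocyte homing.

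The study treated 7 established T-cell acute lymphoblastic leukaemia (T-ALL) lines, ALL-SIL, TALL-1, P12-ICHIKAWA, Molt-4, HPB-ALL, CCRF-CEM and Jurkat, for 6 h with the PI3K inhibitor AS605240 or with vehicle, and measured total RNA on HG-U133 Plus 2.0 arrays. Each line gave 1 AS605240 array and 1 vehicle array, 14 in all, and all cells grew in RPMI-1640 with fetal bovine serum and antibiotics, in fresh medium before treatment. AS605240 was given at the IC50 value of each line, so its concentration was not the same in all lines. The line was the replicate, and the spread between lines holds the noise of single arrays. Levels are given as log2(signal + 16), and changes are AS605240 minus vehicle on that scale, which understates the change of dim probe sets. Levels were compared within a probe set only, since probe sets differ in brightness for reasons other than the amount of RNA.

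The median signal of an array lay between 19.9 and 25.0, and 36.6 to 39.6% of its probe sets had a signal over 50, the level under which a probe set is called dim here. Between any pair of lines the vehicle arrays correlated over all genes at Pearson r = 0.908 to 0.953, except for TALL-1 with P12-ICHIKAWA, which were nearly identical (r = 0.994, 20 pairs otherwise). Some results are therefore also given with both counted as 1 line. Counts of lines and the sign-flip tests keep them as separate lines, which counts nearly identical cells more than once. Of 19 T-cell markers, 12 had a signal over 50 on all 14 arrays, and their summed signal was 15156 to 80460 with vehicle and 14249 to 68432 with AS605240. Of the markers of B cells, myeloid cells, and epithelial cells and fibroblasts, 5 of 8, 8 of 9 and 8 of 10 had no array over 50, whereas LYZ, COL1A1 and KRT8 were over 50 on every array. In bulk RNA, fewer cells with a transcript and less of it per cell cannot be told apart. The median change of all probe sets was above 0 in each of the 7 lines, with a mean of 0.033 and an SD of 0.021 (two-sided exact sign-flip test, p = 0.0156, which is the lower limit for 7 lines). The polyadenylated spike-in controls were higher by 0.22 ± 0.17 (SD, n = 7) in 7 of 7 lines (exact sign-flip test, p = 0.0156), from 0.0046 in CCRF-CEM to 0.55 in Molt-4. The part of this shift in the changes below was not tested.

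Since FOXO proteins bind the letters TAAACA and related elements in DNA, the 250 bases before each start were read from the RefSeq promoter table (GRCh38.p14). All 8 genes matched, with 15 windows. TAAACA was searched on both strands, with its longer form GTAAACA, which contains it, and the insulin response type element CAAAACA. They were found in 11.0%, 2.98% and 4.30% of the 35116 windows of all genes. Among the windows of the 8 genes, TAAACA was found once, in a window of 1 of the alternative starts of FOXO3, and GTAAACA in none. CAAAACA was found once, in IRS2, on the strand opposite to the gene and so reading TGTTTTG, at bases -40 to -34 from the start. A match is a description of letters and not a binding site. The stretches are shown for IRS2, INSR and IGF1R, whose changes with AS605240 are described below. The 100 bases before the start of IRS2 (chr13:109786584-109786683, minus strand), INSR (chr19:7294415-7294514, minus strand) and IGF1R (chr15:98648439-98648538, plus strand) are given, and then the FOXO3 match with its flanks (chr6:108560672-108560701, plus strand). All are written 5′ to 3′ on the strand of the gene, with the matched letters in capitals.
IRS2: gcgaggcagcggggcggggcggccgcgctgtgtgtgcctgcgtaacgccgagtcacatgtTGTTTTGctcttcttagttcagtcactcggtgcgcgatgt
INSR: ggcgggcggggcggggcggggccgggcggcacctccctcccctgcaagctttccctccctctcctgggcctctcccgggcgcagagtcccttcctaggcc
IGF1R: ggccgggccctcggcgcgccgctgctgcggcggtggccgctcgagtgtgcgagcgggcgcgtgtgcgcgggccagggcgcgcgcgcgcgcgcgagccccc
FOXO3: ccgagcgaaacaTAAACAaacgcacgcaca
The stretches are rich in G and C, at 63% in IRS2, 78% in INSR and 87% in IGF1R. Over the 250 bases, G and C made up 76.4% in IRS2, 78.4% in INSR and 81.2% in IGF1R, against a median of 58% over all windows.

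With AS605240, 6 of the 8 genes were higher at their brightest probe set in limma at an adjusted p under 0.05, where 11.8% of all genes were. No probe set of any of the 8 genes was lower. At the brightest probe set, IRS2 had the largest change, 0.83, with INSR at 0.51, IGF1R at 0.40 and the 3 FOXO genes between 0.19 and 0.43. The place of INSR depended on the offset added to the signal. With a smaller offset FOXO1 (0.88) was above INSR (0.62), and with a larger one IGF1R (0.33) was above INSR (0.31). IRS2 was the largest with both (1.07 and 0.53). Of the 27 probe sets, 12 (44.4%) were higher, where 10.4% of all probe sets were higher, and 0 were lower, where 6.03% of all were lower (1 of the 27 was lower at an unadjusted p under 0.05, a GRB10 probe set). Their median change was 0.18, against 0.013 over all probe sets. Only 1 of the 12 was over 1.5-fold, an IRS2 probe set, where 0.926% of all probe sets were higher by that much. The vehicle and AS605240 groups overlap in all 27 probe sets, and the differences show within a line. With the cell line left out of the limma fit, 0 of the 27 passed (1 at an unadjusted p under 0.05), and 24 probe sets did over the whole array. With P12-ICHIKAWA and TALL-1 counted as 1 line, the count was again 12.

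**Figure D1:**
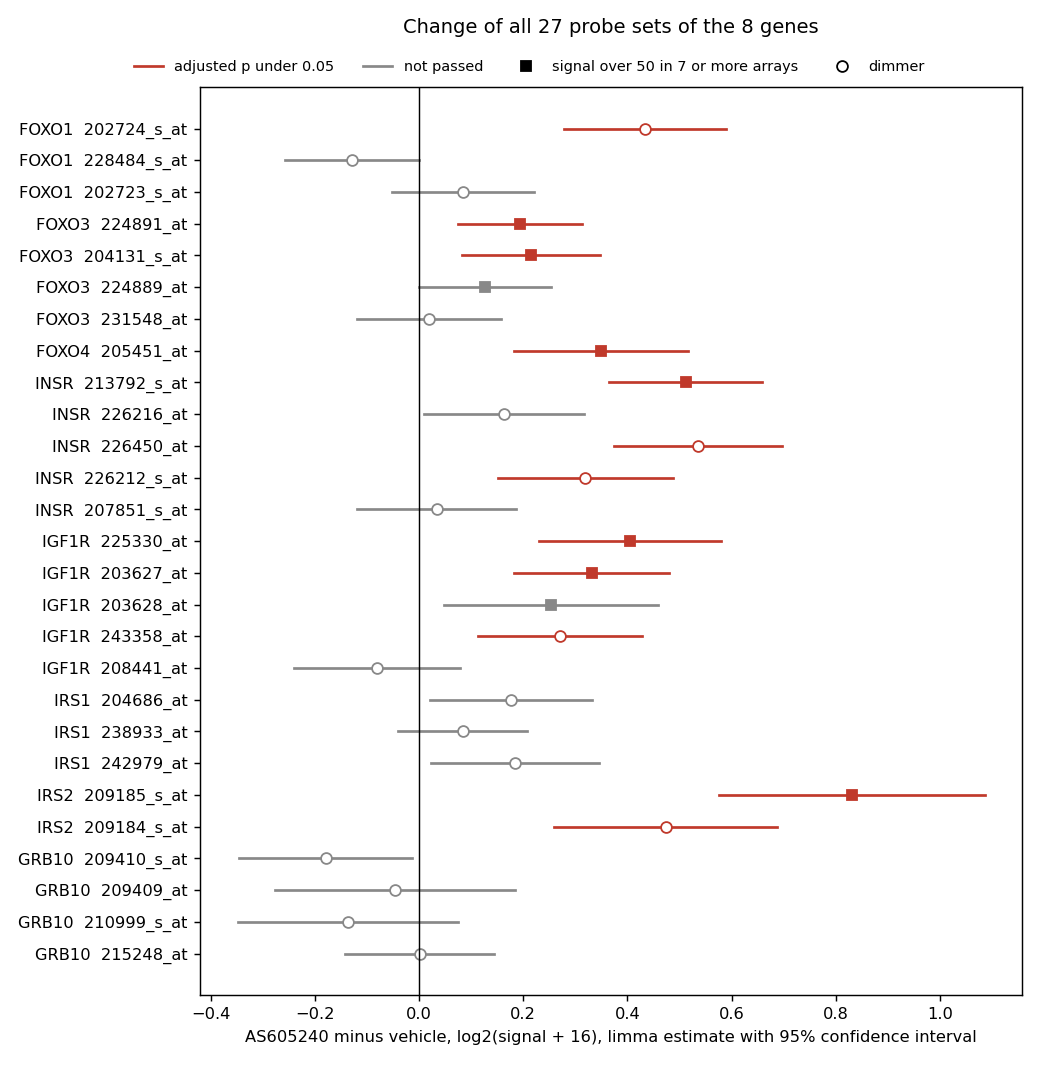
Change with AS605240 of the 27 probe sets of the 8 genes. The x axis is AS605240 minus vehicle in log2(signal + 16) from the paired limma fit over 7 lines, with 95% confidence intervals, the y axis names gene and probe set, red marks an adjusted p under 0.05, and filled squares mark a signal over 50 in at least 7 of 14 arrays. The 12 red intervals lie right of 0, with IRS2 209185_s_at farthest at 0.83, and the 4 GRB10 and 3 IRS1 probe sets are grey.

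FOXO3 had a signal over 50 on all 14 arrays in 3 of its 4 probe sets, and its changes were small. Probe set 224891_at ranged in vehicle from 8.49 in Molt-4 over a median of 9.19 to 9.45 in ALL-SIL, and in AS605240 from 8.74 in Molt-4 over 9.26 to 9.69 in ALL-SIL. The groups overlap, and each of the 7 lines was higher with AS605240, by 0.075 in CCRF-CEM to 0.27 in HPB-ALL. The mean change was 0.19 (SE 0.055, adjusted p = 0.027), and 204131_s_at changed by 0.22 (SE 0.062, adjusted p = 0.0279), also in 7 of 7 lines. The third bright probe set of FOXO3, 224889_at, changed by 0.13 in 6 of 7 lines and did not pass (adjusted p = 0.184). The dim 231548_at changed by 0.019 (adjusted p = 0.901). Without HPB-ALL, Jurkat, Molt-4, P12-ICHIKAWA or ALL-SIL, neither 224891_at nor 204131_s_at passed (adjusted p of 0.0512 to 0.0914). The mean change was 0.19 at 224891_at and 0.22 in the spike-in controls, and how much the 2 share was not tested. By line, 224891_at changed more than the controls in CCRF-CEM, Jurkat and ALL-SIL, and less in HPB-ALL, Molt-4, P12-ICHIKAWA and TALL-1. Centred on the median of each array, FOXO3 no longer passed at gene level (0.16, adjusted p = 0.0606, over a range of 0.00287 to 0.99991 for all 16 settings).

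FOXO1, the family member best known in lymphocytes, was near the floor of the array. Its brightest probe set, 202724_s_at, had no array over 50, with a signal of 0.139 to 27.3. It ranged in vehicle from 4.01 in TALL-1 over 4.32 to 4.87 in ALL-SIL, and in AS605240 from 4.24 in P12-ICHIKAWA over 4.65 to 5.44 in ALL-SIL. All 7 lines were higher with AS605240, though P12-ICHIKAWA by 0.042 where the other lines were higher by 0.32 to 0.63. The mean change was 0.43 (SE 0.072, adjusted p = 0.000924). Its size depended on the offset, at 0.88 with an offset of 4 and 0.15 with 64. The other 2 FOXO1 probe sets were dimmer still and did not pass, with changes of -0.13 (adjusted p = 0.185) and 0.084 (adjusted p = 0.459), so the increase rests on 1 of 3 probe sets. With the mean of all 3, the change was 0.13 (adjusted p = 0.103).

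FOXO4 had a single probe set, 205451_at, with a signal over 50 on all 14 arrays. It ranged in vehicle from 6.08 in HPB-ALL over 6.17 to 6.89 in CCRF-CEM, and in AS605240 from 6.17 in Jurkat over 6.44 to 7.29 in CCRF-CEM. In 6 of 7 lines it was higher, most in Molt-4 at 0.74, whereas Jurkat had a change of -0.038. Over the lines it was higher by 0.35 (SE 0.078, adjusted p = 0.00653). CCRF-CEM and Molt-4 stood above the other lines, and the step from TALL-1 to Molt-4, the neighbours on both sides of this gap, was 0.48 in the mean of both arrays of a line (limma, adjusted p = 0.0167). This gap was picked from the same values that were tested, so the p-value is a description.

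The 3 FOXO genes were compared by their per-line changes. FOXO1 changed more than FOXO3 by 0.24 ± 0.22 (SD, n = 7 lines) in 6 of 7 lines, which did not pass after adjustment over the 5 pairs compared (exact two-sided sign-flip test, p = 0.0469, adjusted p = 0.117). FOXO3 changed less than FOXO4 in 6 of 7 lines, with a difference of -0.16 ± 0.25 (SD, n = 7; exact sign-flip test, p = 0.141, adjusted p = 0.234). FOXO1 and FOXO4 differed by 0.085 ± 0.32 (SD, n = 7; exact sign-flip test, p = 0.531). FOXO1 minus FOXO3 turned to -0.024 with an offset of 64 and to -0.0089 when probe sets were averaged, so their order on this scale was not settled.

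**Figure D2:**
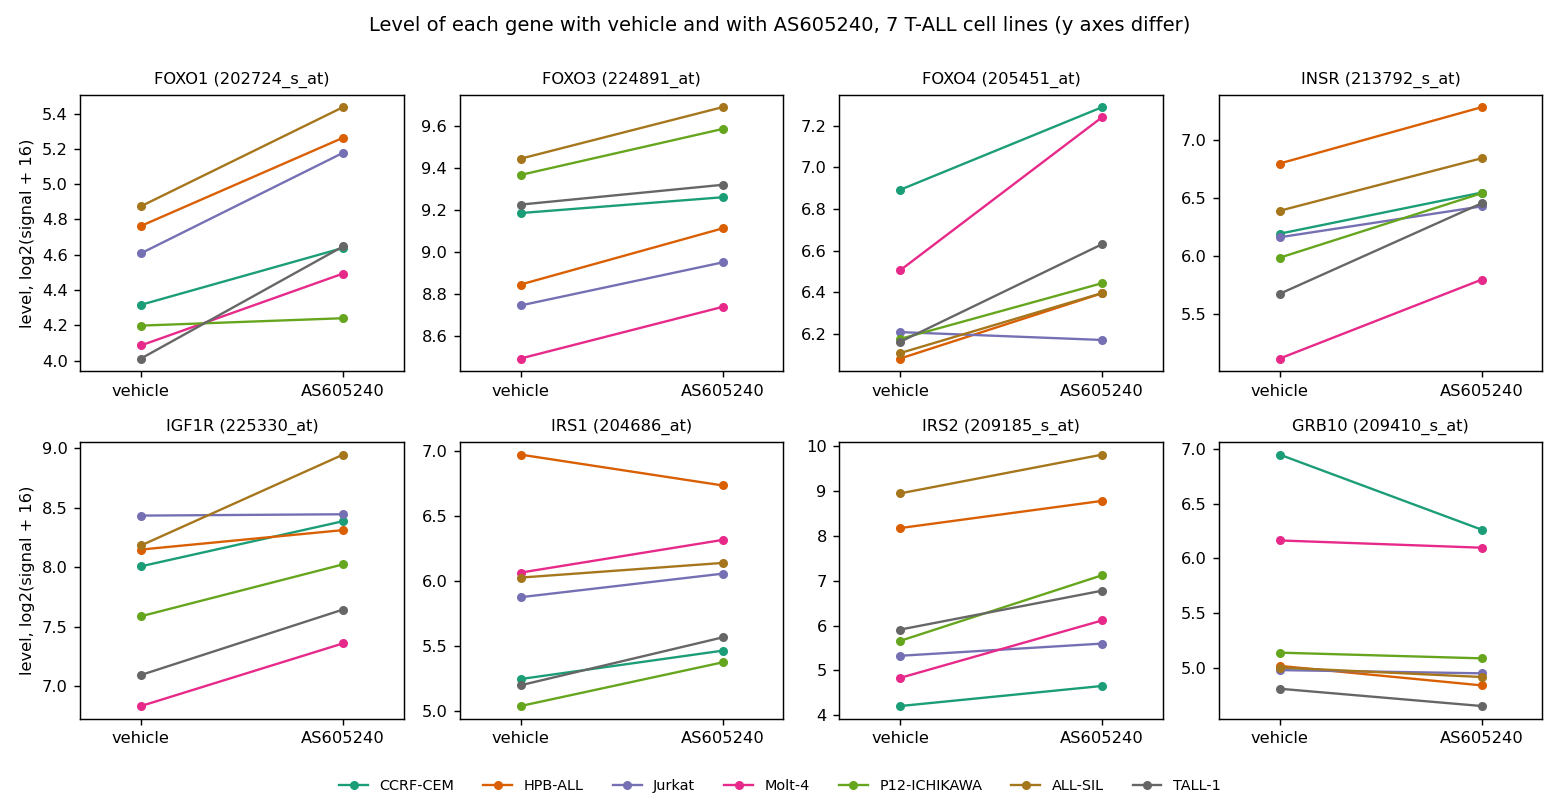
Level of each gene with vehicle and with AS605240. The y axes give log2(signal + 16) of the brightest probe set of the gene and differ between panels, the x axis gives the treatment, and each line joins the 2 arrays of 1 cell line. The AS605240 point is above the vehicle point in 7 of 7 lines for FOXO1, FOXO3, INSR, IGF1R and IRS2, in 6 of 7 for FOXO4 and IRS1, and in none for GRB10.

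INSR, the insulin receptor, was higher in 3 of its 5 probe sets. Probe set 213792_s_at ranged in vehicle from 5.11 in Molt-4 over 6.16 to 6.80 in HPB-ALL, and in AS605240 from 5.80 in Molt-4 over 6.54 to 7.29 in HPB-ALL. Every line was higher, from 0.27 in Jurkat to 0.78 in TALL-1. The mean change was 0.51, or 1.43-fold (SE 0.068, adjusted p = 0.000199). The groups overlap, since Molt-4 with AS605240 stayed below 5 of the 7 vehicle arrays. The probe set 226450_at gave 0.54 (SE 0.075, adjusted p = 0.000287) in 7 of 7 lines, from 0.27 in Jurkat to 0.95 in ALL-SIL. The probe set 226212_s_at gave 0.32 (SE 0.078, adjusted p = 0.0115) in 6 of 7, with CCRF-CEM at -0.0018. The remaining 226216_at and 207851_s_at, the latter with no array over 50, changed by 0.16 (adjusted p = 0.156) and 0.034 (adjusted p = 0.834), although 226216_at passed without ALL-SIL (0.23, adjusted p = 0.0263). With P12-ICHIKAWA and TALL-1 counted as 1 line, the gene-level change of INSR was 0.49 (adjusted p = 0.000601), within a range of 5.5e-05 to 0.879 over its 16 settings, of which the fit without the cell line alone did not pass.

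IGF1R, the receptor for IGF1 that can pair with INSR in hybrid receptors, also had 3 of 5 probe sets higher. Probe set 225330_at ranged in vehicle from 6.83 in Molt-4 over 8.01 to 8.43 in Jurkat, and in AS605240 from 7.36 in Molt-4 over 8.31 to 8.95 in ALL-SIL. Jurkat, the highest line in vehicle, was the least changed at 0.011, and ALL-SIL the most at 0.76. This made a mean change of 0.40, or 1.32-fold (SE 0.081, adjusted p = 0.00326). Jurkat was also the least changed line at 203627_at, by 0.00095, whereas Molt-4 was the most changed there, by 0.56. The mean change in limma was 0.33 (SE 0.069, adjusted p = 0.00427). The dimmer 243358_at was higher by 0.27 (adjusted p = 0.0204), a call that was lost without Molt-4, ALL-SIL or TALL-1 (adjusted p of 0.0528 to 0.0640). Probe set 203628_at changed by 0.25 in 5 of 7 lines (adjusted p = 0.0922) and passed without Jurkat (0.35, adjusted p = 0.0124). The fifth, 208441_at, had no array over 50 and changed by -0.082 (adjusted p = 0.555). INSR and IGF1R changed by amounts that differed by 0.11 ± 0.22 (SD, n = 7 lines; exact two-sided sign-flip test, p = 0.234, adjusted p = 0.293), with line differences of -0.31 to 0.32.

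IRS2, the substrate that carries insulin and IL-4 signals to PI3K in lymphocytes, had the largest change of the 8 genes and the widest spread between lines. With vehicle, 209185_s_at was 8.95 in ALL-SIL, 8.18 in HPB-ALL, 5.91 in TALL-1, 5.66 in P12-ICHIKAWA, 5.33 in Jurkat, 4.83 in Molt-4 and 4.20 in CCRF-CEM. With AS605240 it was 9.82 in ALL-SIL, 8.79 in HPB-ALL, 7.13 in P12-ICHIKAWA, 6.78 in TALL-1, 6.12 in Molt-4, 5.60 in Jurkat and 4.65 in CCRF-CEM. Every line was higher with AS605240, P12-ICHIKAWA and Molt-4 the most at 1.47 and 1.28, and Jurkat and CCRF-CEM the least at 0.27 and 0.45. The signal of 209185_s_at was over 50 on 7 arrays, and with vehicle in ALL-SIL and HPB-ALL only. It was dim with both treatments in CCRF-CEM (2.42 with vehicle, 9.14 with AS605240) and in Jurkat (24.1 and 32.4). The increases in CCRF-CEM and Jurkat thus rest on dim signals. The mean change was 0.83, or 1.78-fold (SE 0.12, adjusted p = 0.000331). Both groups span almost the same range, and no line moved past ALL-SIL or HPB-ALL. At the second probe set, 209184_s_at, the change was 0.47 (SE 0.10, adjusted p = 0.00439) in 6 of 7 lines, with CCRF-CEM at -0.17, a line in which its signal did not exceed 50 on either array. This call was lost with an offset of 4 (0.56, adjusted p = 0.0834). Counting P12-ICHIKAWA and TALL-1 as 1 line left the gene-level change at 0.77 (adjusted p = 0.000822), within 0.000103 to 0.99991 over 16 settings, of which the fit without the cell line alone did not pass. The change was 0.53 with an offset of 64, which is under 1.5-fold.

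IRS1, the other broadly used receptor substrate, did not pass at any of 3 probe sets. Probe set 204686_at ranged in vehicle from 5.04 in P12-ICHIKAWA over 5.88 to 6.97 in HPB-ALL, and in AS605240 from 5.37 in P12-ICHIKAWA over 6.06 to 6.74 in HPB-ALL. In 6 lines the change was between 0.11 and 0.37, and HPB-ALL, the line with the highest level, had -0.24. The mean change was 0.18 (SE 0.072, 95% interval 0.021 to 0.33, adjusted p = 0.123). Without HPB-ALL it was 0.25 and passed (adjusted p = 0.0169). The dim 238933_at and 242979_at changed by 0.083 (adjusted p = 0.411) and 0.18 (adjusted p = 0.124). IRS2 changed more than IRS1 in 7 of 7 lines, by 0.65 ± 0.40 (SD), from 0.091 to 1.13. The exact two-sided sign-flip test gave p = 0.0156, the smallest that 7 lines allow, and 0.0781 after adjustment over the 5 pairs.

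**Figure D3:**
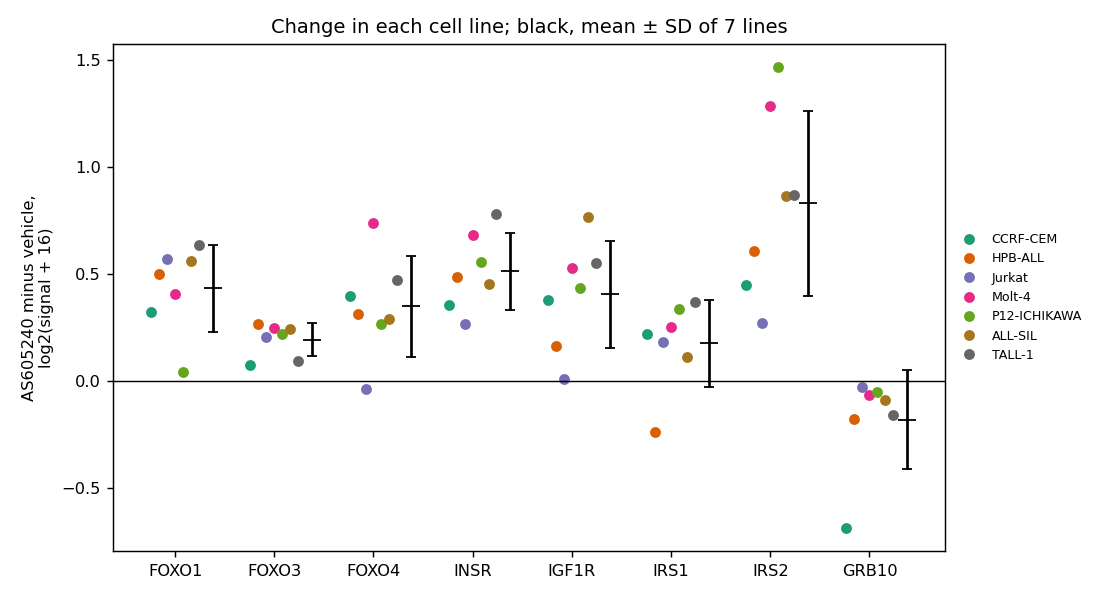
Change with AS605240 in each cell line at the brightest probe set of each gene. The y axis is AS605240 minus vehicle in log2(signal + 16), coloured points are the 7 lines and black bars the mean ± SD. IRS2 has the highest points, at 1.47 in P12-ICHIKAWA and 1.28 in Molt-4, and HPB-ALL for IRS1 (-0.24) and CCRF-CEM for GRB10 (-0.69) stand apart from the other lines.

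GRB10 codes for an adaptor that binds the activated insulin and IGF1 receptors and dampens their signal, and none of its 4 probe sets passed in either direction. Probe set 209410_s_at ranged in vehicle from 4.81 in TALL-1 over 5.02 to 6.95 in CCRF-CEM, and in AS605240 from 4.65 in TALL-1 over 4.95 to 6.26 in CCRF-CEM. The values were lower in 7 of 7 lines, but 6 of the 7 changes were between -0.18 and -0.030, and CCRF-CEM had -0.69. On average the change was -0.18 (SE 0.077, 95% interval -0.34 to -0.014, adjusted p = 0.144). The probe sets 209409_at, 210999_s_at and 215248_at changed by -0.046 (adjusted p = 0.849), -0.14 (adjusted p = 0.43) and 0.0015 (adjusted p = 0.994). For 3 of the 4 probe sets, only the 4 arrays of CCRF-CEM and Molt-4 had a signal over 50, and 215248_at had none. In CCRF-CEM, the brightest line, 209409_at changed by -0.56, in the direction of 209410_s_at, and in Molt-4 by -0.025.

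Levels of most members differed between lines. No line had a replicate culture of the same treatment, so the spread in this comparison is what the line and treatment terms of the fit left over. In the F test of the line terms of the limma fit, 25 of 27 probe sets (92.6%) passed, where 64% of all probe sets did, and the other two were the dim FOXO1 202723_s_at (adjusted p = 0.109) and IGF1R 208441_at (adjusted p = 0.453). The widest range of line means was that of IRS2 209185_s_at, 4.96 between CCRF-CEM and ALL-SIL. In its order of line means, CCRF-CEM (4.43) was below Jurkat (5.46; adjusted p = 0.00315), Jurkat and Molt-4 (5.47) did not differ beyond their spread (adjusted p = 0.982), and Molt-4 was below TALL-1 (6.35; adjusted p = 0.00573). TALL-1 and P12-ICHIKAWA (6.39) did not differ (adjusted p = 0.981), the gap from P12-ICHIKAWA to HPB-ALL (8.48) was 2.09 (adjusted p = 4e-06), and ALL-SIL was highest (9.39; adjusted p = 0.00611 against HPB-ALL). The other IRS2 probe set put HPB-ALL and ALL-SIL on top and CCRF-CEM at the bottom too. Neighbours here and below were taken from the order of the same line means that were tested, so their p-values are a description. The adjustment was over probe sets and not over the 21 pairs of lines.

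For GRB10 209410_s_at, CCRF-CEM (6.60) exceeded Molt-4 (6.13; adjusted p = 0.0217), and Molt-4 exceeded P12-ICHIKAWA (5.11) by 1.02 (adjusted p = 5.2e-05). The remaining neighbours, down to TALL-1 at 4.73, did not differ beyond their spread (adjusted p of 0.355 to 0.985). CCRF-CEM thus had the highest GRB10 209410_s_at and the lowest IRS2 209185_s_at of the 7 lines. Molt-4 was the lowest line at INSR 213792_s_at (5.46), below TALL-1 (6.06; adjusted p = 0.00141), whereas at INSR 226216_at TALL-1 was lowest (5.31). For IGF1R, Molt-4 was lowest at the 3 brighter probe sets. The step to the next line was not passed at 225330_at (0.27 to TALL-1, adjusted p = 0.177) and was passed at 203627_at (1.15 to TALL-1, adjusted p = 6.06e-06) and 203628_at (0.81 to Jurkat, adjusted p = 0.00324). HPB-ALL had the highest INSR at 213792_s_at (7.04, adjusted p = 0.0207 against ALL-SIL) and the highest IRS1 at 204686_at (6.86, adjusted p = 0.00105 against Molt-4). At the latter, TALL-1 (5.38) was below Jurkat (5.97; adjusted p = 0.00311), with P12-ICHIKAWA and CCRF-CEM beside TALL-1. For FOXO3 the neighbours that differed depended on the probe set. At 224891_at no neighbours differed beyond their spread, with Molt-4 (8.62) and ALL-SIL (9.57) at the ends of the order. In the limma contrasts at 204131_s_at, Molt-4 (6.69) was below Jurkat (7.42, adjusted p = 0.000247) and Jurkat below HPB-ALL (7.82, adjusted p = 0.0134). There CCRF-CEM (7.88) was also below TALL-1 (8.25, adjusted p = 0.0215). At 224889_at Jurkat (6.90) was below CCRF-CEM (7.44, adjusted p = 0.00222) and HPB-ALL (7.67) below TALL-1 (8.11, adjusted p = 0.00673). Molt-4 was lowest at both probe sets. For FOXO1 202724_s_at, CCRF-CEM (4.48) was below Jurkat (4.89; adjusted p = 0.038), and no other neighbours differed.

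**Figure D4:**
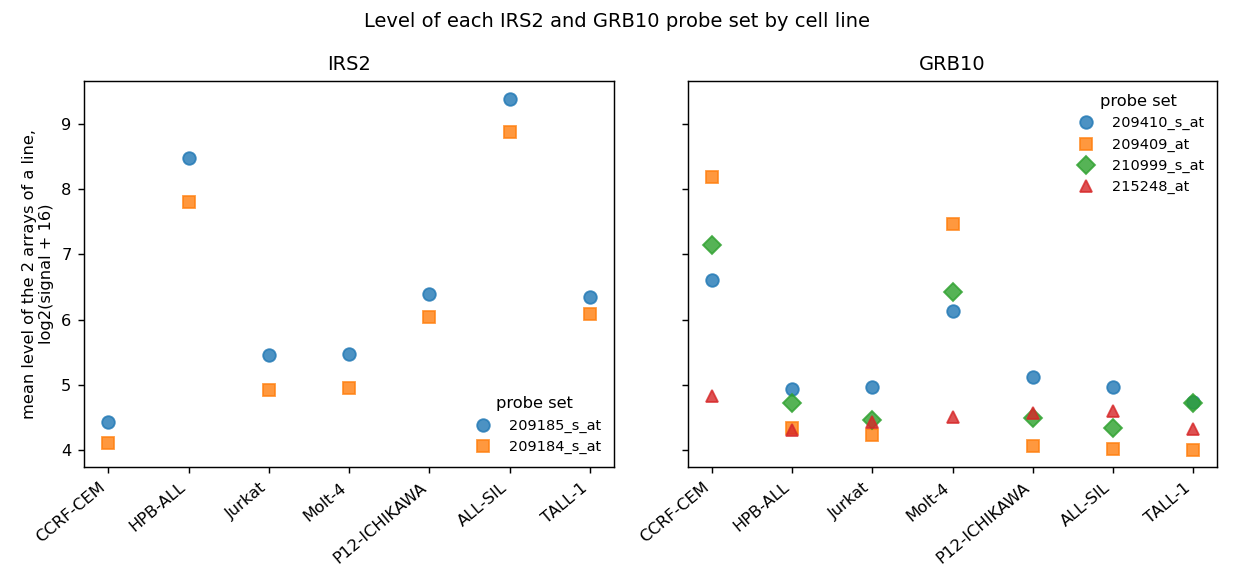
Mean level of each IRS2 and GRB10 probe set by cell line. The y axis is the mean log2(signal + 16) of the 2 arrays of a line, the x axis gives the line, and symbols mark probe sets, whose heights are not comparable with each other. IRS2 peaks in ALL-SIL and HPB-ALL, and 3 of 4 GRB10 probe sets stand high only in CCRF-CEM and Molt-4.

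The size of the change varied between lines. Whether the lines responded unequally was not tested, since with 1 array per line and treatment this cannot be told from the noise of single arrays. Over the 12 probe sets that were higher, the median change of a line was 0.24 in Jurkat, 0.26 in CCRF-CEM, 0.36 in P12-ICHIKAWA, 0.37 in HPB-ALL, 0.44 in TALL-1, 0.52 in ALL-SIL and 0.54 in Molt-4. Over all 4464 probe sets that were higher, it was 0.31 in Jurkat, 0.26 in CCRF-CEM, 0.35 in P12-ICHIKAWA, 0.36 in HPB-ALL, 0.41 in TALL-1, 0.30 in ALL-SIL and 0.37 in Molt-4. Both sets were chosen on these same arrays, so the values are a description. All 12 were above 0 in 5 lines, 11 were in Jurkat and 10 in CCRF-CEM. Molt-4 and ALL-SIL were thus the lines in which the members exceeded the other increased probe sets by most, and Jurkat was below them. Molt-4 also had the largest change of the spike-in controls, 0.55, and ALL-SIL 0.17.

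The genes whose log2 levels ran closest to a member over the 14 arrays, among the 9185 or 9186 genes per member that were not dim on 7 or more arrays, are given as a description, since the arrays share lines and treatment. FOXO1 was closest to INPP5E (Pearson r = 0.944), a phosphatase of inositol lipids, and to MAFG (r = 0.908). FOXO3 was closest to RIPOR2 (r = 0.963) and PKN2 (r = 0.958), and FOXO4 to MYL6B (r = 0.928) and PLIN3 (r = 0.925). INSR was closest to TINF2 (r = 0.947) and to IGF2R (r = 0.933), the receptor that clears IGF2 and carries lysosomal enzymes. IGF1R was closest to ZNF558 (r = 0.907) and ACER3 (r = 0.891). IRS2 was closest to HDAC7 (r = 0.969) and CRTC3 (r = 0.964).

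Of 41 other genes of the insulin and IGF pathway measured, each by its brightest probe set, 12 were higher and 1 lower, where 11.8% of all genes were higher and 7.03% lower, and their median change was 0.063 against 0.013 over all genes. APPL2, an adaptor of receptors and endosomes, was higher by 0.56 (SE 0.068, adjusted p = 9.87e-05), and IGF2R by 0.53 (SE 0.070, adjusted p = 0.000188). SOS2, an exchange factor that links receptors to RAS, was higher by 0.40 (adjusted p = 0.000194), and SHC1, the adaptor that starts this branch, by 0.38 (adjusted p = 0.000384). These 4 were higher in 7 of 7 lines. IGFBP2, a secreted protein that binds IGFs, was lower in 7 of 7 lines, by a mean change of -0.41 (SE 0.077, adjusted p = 0.00187). The count of 12 was 7 with an offset of 4, when the probe sets of a gene were averaged, and without TALL-1. With quantile normalization it was 8 higher and 4 lower, and with median centring 9 higher and 4 lower. Of the 41 genes, 24 had a signal over 50 in at least 7 arrays, against 9186 of all 19775 genes.

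Among 44 regulators and cofactors of FOXO proteins, 10 (22.7%) were higher and 3 (6.82%) lower, where 11.8% of all genes were higher and 7.03% lower. Their median change was 0.0029, against 0.013 over all genes. This list is brighter than the array, with 40 of 44 genes over a signal of 50 in at least 7 arrays, against 9186 of all 19775 genes. KAT2B, an acetyltransferase, was higher by 0.44 (adjusted p = 0.00194), and BCL6, a repressor that is itself a FOXO target, by 0.35 (adjusted p = 0.00272). CSNK1E and DYRK1A, kinases of the casein kinase and DYRK families, were higher by 0.27 (adjusted p = 0.00579) and 0.25 (adjusted p = 0.00797). The 3 lower genes were YWHAG (-0.32, adjusted p = 0.00362), a 14-3-3 protein of the kind that binds phosphorylated FOXO, CSNK1A1 (-0.30, adjusted p = 0.00449), a kinase that phosphorylates FOXO1, and PRMT1 (-0.29, adjusted p = 0.0145), an arginine methyltransferase. The share of lower genes in the list was thus near that of all genes. Its count of 10 was 6 with an offset of 4 and 5 when probe sets were averaged, whereas it was 8 higher and 5 lower with quantile normalization and 7 higher and 5 lower with median centring.

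Of 46 FOXO target genes measured, 22 (47.8%) were higher and 1 lower, where 11.8% of all genes were higher and 7.03% lower. Their median change was 0.26. The list is brighter than the array, with 31 of 46 genes over a signal of 50 in at least 7 arrays, against 9186 of all 19775 genes. CCNG2, a cyclin of arrested cells, was higher by 1.15 (SE 0.082, adjusted p = 4.63e-06) and by at least 0.72 in every line. KLF6, a zinc finger factor, was higher by 0.53 (adjusted p = 9.62e-05), MXI1, an antagonist of MYC, by 0.52 (adjusted p = 0.000102), and MAP1LC3B, a coat protein of autophagosomes, by 0.46 (adjusted p = 0.000247), all in 7 of 7 lines. DDIT4, an inhibitor of mTORC1 that also answers to other stress signals, was the 1 lower gene, with -0.45 (adjusted p = 0.000364). INSR and IRS2 were not part of this list. The list was chosen with earlier results of these data known, so the share is a description and not a test of the list.

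Lists of other receptors and other forkhead genes hold more dim genes, with 7 of 44 and 11 of 36 over 50 in at least 7 arrays, against 31 of 46 FOXO targets. Of the 44 other receptor tyrosine kinase genes, 2 were higher and 0 lower (3 at an unadjusted p under 0.05), PTK7 by 0.32 (adjusted p = 0.00156) and ERBB2 by 0.47 (adjusted p = 0.00206), the latter with no array over 50. Of 36 other forkhead genes, 4 (11.1%) were higher and 2 (5.56%) lower, near the 11.8% and 7.03% of all genes. FOXK1, which represses autophagy genes and is itself held out of the nucleus when mTOR is inhibited, was higher by 0.41 (adjusted p = 0.000681), FOXP1, a factor of lymphocyte quiescence, by 0.43 (adjusted p = 0.00195) and FOXN3 by 0.30 (adjusted p = 0.00606). The dim FOXD2 was higher by 0.35 (adjusted p = 0.00149). FOXO6, the remaining member of the FOXO family, was lower in 6 of 7 lines, with -0.32 (adjusted p = 0.0163), and FOXQ1 in 7 of 7, with -0.23 (adjusted p = 0.00978). FOXO6 thus had the opposite sign to FOXO1, FOXO3 and FOXO4, with each gene read at its brightest probe set only. Whether the FOXO6 probe set also reads other transcripts was not tested.

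Of 19 T-cell markers, 0 were higher in limma (0 at an unadjusted p under 0.05) and 1 was lower, CD3G, a chain of the T-cell receptor complex, by -0.26 (adjusted p = 0.00682). Of 8 B-cell markers, BLNK, with no array over 50, was higher by 0.40 (adjusted p = 0.0199), and CD79B, a chain of the B-cell receptor with 5 arrays over 50, was lower in 7 of 7 lines, with -0.58 (adjusted p = 0.00138). Of 9 myeloid and 10 epithelial and fibroblast markers, 0 passed (1 of each at an unadjusted p under 0.05).

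**Figure D5:**
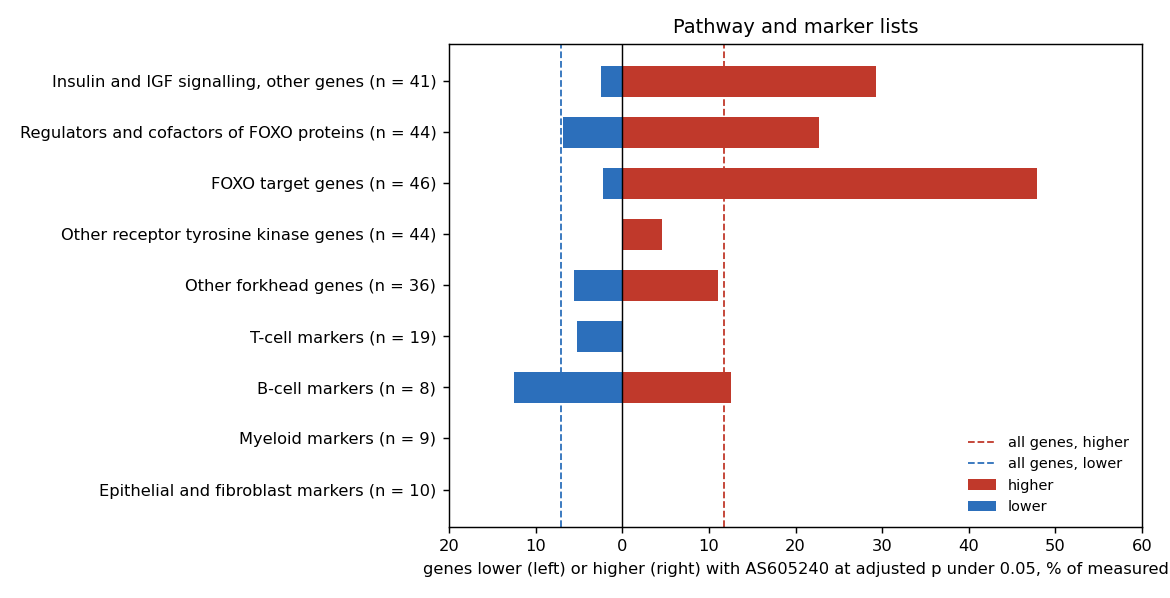
Share of each gene list that was higher or lower with AS605240. The x axis is the percent of measured genes lower (left, blue) or higher (right, red) at an adjusted p under 0.05, n is the number measured, and dashed lines mark 11.8% higher and 7.03% lower over all genes. FOXO target genes have 47.8% higher, and the myeloid and the epithelial and fibroblast markers have none in either direction. The lists were chosen with earlier results of these data known and differ in brightness.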

How the data were processed

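For 54675 probe sets of HG-U133 Plus 2.0 arrays, the deposited value is a signal intensity on a linear scale. The study's methods state a summary with iterPLIER, and PLIER and Affymetrix Expression Console 1.3.1.187 are in the submitters' processing notes. How arrays were normalized first is not given in the sources. In the platform annotation 41091 probe sets name 1 gene, 1801 several and 11721 none, apart from 62 array controls, and 41037 symbols were updated through the gene ID. An offset of 16 was added to the deposited intensity and log2 taken, as the study's methods state.

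The paired comparison used limma 3.58.1 (lmFit, eBayes) under R 4.3.3 with a term for the cell line, since both arrays of a pair come from 1 line by its label. The p-values were adjusted by Benjamini and Hochberg over 42892 probe sets with a gene symbol, or over 19775 genes, each represented by its brightest probe set of 1 gene by mean log2 level. Member values are given per probe set, list values per gene. Genes of the 9 lists named in the text are up to 4 per direction with the smallest p among those past an adjusted p of 0.05, and up to 2 genes most like each member that passed. Pairs of members were compared by the exact sign-flip test over 7 lines (128 sign patterns). The 8 members and the lists were chosen with earlier results of these data known. The fit was tested on simulated data. Other settings were offsets of 4 and 64, quantile normalization, median centring, no block, a signal over 50 in at least 7 arrays, all probe sets except controls, trend and robust eBayes, P12-ICHIKAWA and TALL-1 as 1 line, the mean of all probe sets of a gene, and each line left out. The number of arrays limits the precision. Promoter sequences came from RefSeq (GRCh38.p14).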

Additional observations from a re-analysis of the deposited data

Results flagged for a closer look

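Values of the 24 groups of 7 looked at (vehicle levels, AS605240 levels and changes of the 8 genes) were searched for a line far from the others, with 2 found. Chance flags about 1 in 20 groups. The change of IRS1 204686_at in HPB-ALL was -0.24, at a gap to the nearest line of 0.578 of the whole range, while the other 6 lines were between 0.11 and 0.37. The change of GRB10 209410_s_at in CCRF-CEM was -0.69, at a gap of 0.774 of the range, while the other 6 lines were between -0.18 and -0.030. HPB-ALL had the highest IRS1 level and CCRF-CEM the highest GRB10 level of the 7 lines.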

How the results depend on the processing

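The count of 12 higher among the 27 probe sets of the 8 genes was 0 with no replicate block (cell line left out). It was 9 with an offset of 4, 10 with median centring, 11 with quantile normalization and 12 in the other settings with all 27. With each line left out it was 9 to 12. When dim probe sets (fewer than 7 arrays over 50) were dropped, 9 probe sets were left, and 8 of these were higher. The share of all probe sets was not set beside these counts. No probe set was lower in any of these settings. Without the block, none of the 6 genes passed (adjusted p of 0.827 to 0.99991). At gene level FOXO4, INSR, IGF1R and IRS2 passed in all settings with the block. FOXO3 did not pass with an offset of 4 (adjusted p = 0.0591), with median centring (0.0606) or without HPB-ALL, Jurkat, Molt-4, P12-ICHIKAWA or ALL-SIL (0.0541 to 0.0593). FOXO1 did not pass with the mean of its probe sets, whereas IRS1 did (0.15, adjusted p = 0.0427), as it did without HPB-ALL (0.25, adjusted p = 0.0154). Signs turned for 4 probe sets that did not pass and for 3 of the 5 pairs of members, among them FOXO1 minus FOXO3, with 0.24 in the main setting. GRB10 215248_at was -0.018 with an offset of 4, -0.0015 with quantile normalization and -0.032 centred, and -0.022 to 0.061 with a line left out. FOXO3 231548_at was -0.014 centred and -0.021 to 0.052 with a line left out, INSR 207851_s_at -0.0054 to 0.078 and GRB10 209409_at -0.16 to 0.039. With an offset of 64, INSR minus IGF1R was -0.022, FOXO1 minus FOXO3 -0.024 and FOXO1 minus FOXO4 -0.079, and with probe sets averaged FOXO1 minus FOXO3 was -0.0089 and FOXO1 minus FOXO4 -0.22. The cause was not tested. For dim probe sets, among them all of FOXO1, the size of a change depends on the offset, and low signal over background limits what can be read from them.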
